A study of Mus musculus with 8 samples.

Results

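The cytosolic ribosomal protein genes of MIN6 cells were examined, 90 of the 55536 genes in the count table. They were chosen by symbol: names of the form Rpl or Rps followed by a number, with an optional short suffix, plus Rplp0, Rplp1, Rplp2 and Rpsa. Ribosomal S6 kinases and genes with -ps in the name were left out. The 90 genes comprised 46 canonical large-subunit genes, 31 canonical small-subunit genes, 8 paralogues of canonical genes and 5 retrocopies, which the annotation lists as processed pseudogenes. Among the paralogues, Rps4l is annotated as a transcribed processed pseudogene. Enough counts for a test were present for 85 of the 90 genes, among 18266 genes tested: all 77 canonical genes, 4 paralogues and 4 retrocopies. Fau and Rack1 also encode ribosomal proteins but fall outside the symbol pattern, and are described apart.

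MIN6 is a line of β-cells that secrete insulin, grown from a tumour of a mouse. Both groups were wild-type MIN6 cells transfected for 48 h with Lipofectamine 3000, a lipid reagent that carries plasmids into cells. The 4 control libraries came from cells given the pcDNA 3 empty vector, and the 4 Klf4 libraries from cells given pGloMyc-Klf4, which expresses the zinc-finger transcription factor Klf4. The labels name 4 biological replicates per group, with replicates 1 and 2 in batch 1 and replicates 3 and 4 in batch 2. The plasmid backbones differ by name, so backbone and Klf4 changed together and cannot be told apart. The labels do not say what share of the cells took up a plasmid, and in bulk RNA fewer cells with a transcript and less transcript per cell cannot be told apart. Islets are mentioned in the extraction text, whereas all 8 samples carry the name MIN6.

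Cytosolic ribosomes are built from a small subunit, which reads the messenger RNA, and a large subunit, which joins the amino acids. Outside the acidic stalk proteins, nearly all are present in a single copy per ribosome, and their mRNAs share a 5′ terminal oligopyrimidine (TOP) tract, a run of C and U at the very start of the transcript through which mTORC1 signalling controls their translation. In β-cells, ribosomes supply the large output of proinsulin. Because the proteins are made from many small, highly expressed genes with numerous processed pseudogenes, their reads are also among the harder ones to assign to a single locus.

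Total counts were between 45417853 and 52731176 per library, and 74 of the 90 genes had at least 4000 counts in every library. Klf4 measured 42.8, 42.3, 39.1 and 36.1 CPM (read counts made comparable between libraries through TMM factors) in control replicates 1 to 4, and 4873, 4532, 4903 and 5853 CPM in Klf4 replicates 1 to 4. Reads of the plasmid and of the endogenous gene were counted together. Of all tested genes, 36.6% were called changed by edgeR's quasi-likelihood test with a batch term at a Benjamini-Hochberg adjusted p under 0.05, 21.1% higher and 15.5% lower. The balance of the calls depended on the scaling: 57.7% of them were higher with TMM factors over all genes, and 72.8% with factors from abundant genes alone, those whose average log2 CPM was 6 or more.

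The ribosomal protein genes moved little under the Klf4 plasmid. Of the 85 tested, 12 fell, none rose and 73 were not called, a share of 14.1% lower against the 15.5% of all tested genes called lower. Abundant genes had smaller errors, with a median standard error of 0.031 log2 units over the 4006 abundant genes, against 0.063 over all tested genes. Of those 4006, 31.4% were called lower, and of the 75 ribosomal protein genes among them 10 (13.3%) were. The median log2 fold change, Klf4 over control, was -0.045 for the 85 genes, -0.038 for the 4006 abundant genes and -0.014 for all tested genes. An unadjusted p under 0.05 was reached by 25 of the 85.

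Estimates were mostly close to 0, as they were among the 4006 abundant genes, whose quartiles were -0.095 and 0.029. Log2 fold changes of the canonical genes ran from -0.32 to 0.036, and for 76 of the 85 tested genes the 95% interval lay wholly within 0.2 log2 units of no change, a range that a median standard error of 0.028 made measurable. The estimate was below 0 for 77 genes and above 0 for 8, but below 0 for only 52 with factors from abundant genes, which moved the median of all tested genes from -0.014 to 0.021. In batch 1 alone the median was -0.022 with 61 genes below 0, and in batch 2 alone it was -0.064 with 79 below 0. No ribosomal protein gene was called for a plasmid effect that differed between batches (edgeR interaction term, lowest adjusted p = 0.366). Of all tested genes only 0.766% were called, so the absence of calls among 85 is near that share and shows no likeness of the batches. Each batch held 2 libraries per group. An unadjusted p under 0.05 was reached by 4 of the 85 in edgeR and by 2 in DESeq2.

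**Figure D1:**
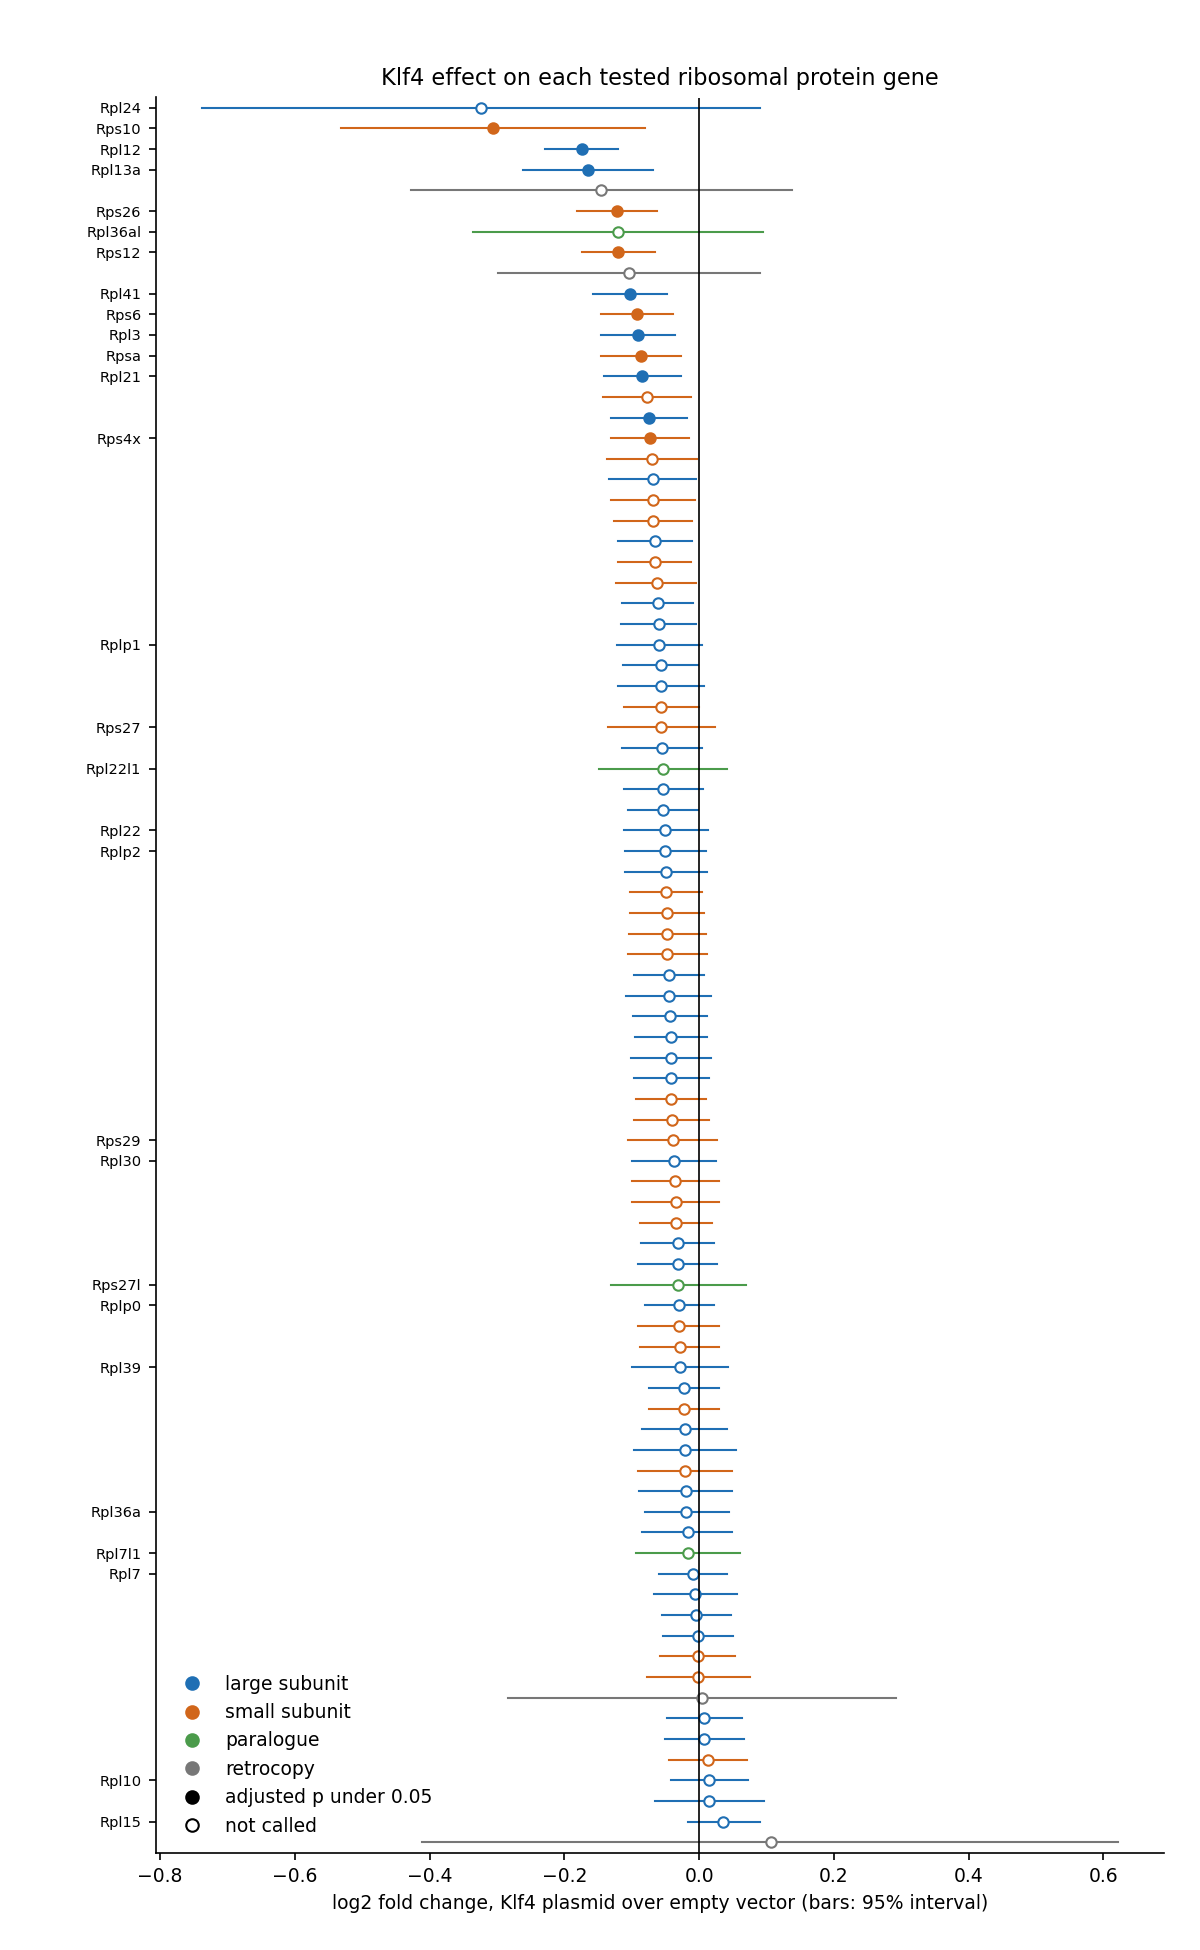
Log2 fold change (x axis, Klf4 plasmid over empty vector) of each of the 85 tested ribosomal protein genes (y axis, ordered by value, with some of the genes described in the text labelled), with 95% intervals from edgeR. Colours give the class and filled points are the 12 genes with an adjusted p under 0.05, all of them lower. Most intervals are narrow and lie close to 0, and the wide ones belong to genes with few counts.

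The count of 12 depended on the processing. It was 3 without the batch term, 5 (with Rpl15 then called higher) with factors from abundant genes, 37 with an offset for transcript length and GC content, 32 without control replicate 2 and 24 without Klf4 replicate 1. Of all genes tested in those fits, 6.35%, 8.97%, 19.7%, 17.7% and 14% were called lower, in the same order. With the offset the share of the 85 genes called lower was 43.5%, so its nearness to the share of all genes also depended on the processing. Across these and the other alternatives the median of the 85 genes (83 of them with a filter at 1 CPM) was between -0.076 and -0.010.

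Promoter sequences are shown for 5 genes on which the results turn: Rpl12, Rpl41 and Rpl13a, which were called lower under every alternative, Rps26, which had the largest difference between batches, and Rpl15, the canonical gene with the highest log2 fold change. Each is 120 bases of RefSeq sequence (GRCm38.p6), from 100 bases before to 20 bases after the annotated start, on the gene's strand. Capitals mark the longest run of C and T between 50 bases before and 20 bases after the start, and each such run where several are equally long, as in Rpl12 (2 runs) and Rpl41 (3 runs).
Rpl12 (chr2:32961612-32961731, + strand): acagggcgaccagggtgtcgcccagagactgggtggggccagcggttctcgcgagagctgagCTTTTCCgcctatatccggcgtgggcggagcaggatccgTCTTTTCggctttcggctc
Rpl41 (chr10:128549149-128549268, - strand): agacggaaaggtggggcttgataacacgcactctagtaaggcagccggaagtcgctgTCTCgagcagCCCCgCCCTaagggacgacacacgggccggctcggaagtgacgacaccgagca
Rpl13a (chr7:45128726-45128845, - strand): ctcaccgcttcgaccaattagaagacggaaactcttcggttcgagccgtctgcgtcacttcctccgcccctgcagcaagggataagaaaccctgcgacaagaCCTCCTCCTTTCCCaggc
Rps26 (chr10:128626487-128626606, - strand): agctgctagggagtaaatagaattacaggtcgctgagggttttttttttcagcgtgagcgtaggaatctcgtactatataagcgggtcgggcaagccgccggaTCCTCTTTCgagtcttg
Rpl15 (chr14:18270967-18271086, - strand): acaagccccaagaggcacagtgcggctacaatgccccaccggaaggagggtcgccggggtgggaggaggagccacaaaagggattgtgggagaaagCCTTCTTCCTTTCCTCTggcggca

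In these sequences the run was 14 bases in Rpl13a, 9 in Rps26 and 17 in Rpl15, and only 7 in Rpl12, at 2 places, and 4 in Rpl41, at 3 places. A run of at least 8 bases was found near the start of 35 of the 57 canonical genes with a RefSeq promoter entry (61.4%), against 30.7% of the 12236 tested genes and 31.1% of all 27025 genes with one. It was present in 5 of 9 canonical genes called lower under Klf4 and in 30 of 48 not called. Over the whole 300-base window and on both strands, the word CCGGAAGT, which ETS-family factors recognise, was found in 19.3% of the canonical genes and 8.08% of tested genes. CCACACCC, a word of the kind bound by Krüppel-like factors, was found in 3.51% and 4.64%. AAGATGGC, a YY1 word, was found in 8.77% and 4.68%, and CCCGCCC, the core of a GC box, in 45.6% and 49.1%. Of the 9 genes called lower and the 48 not called, CCGGAAGT was in 3 and 8, and CCACACCC in 0 and 2. AAGATGGC was in 1 and 4, and CCCGCCC in 4 and 22. These splits were not tested, and 9 genes are too few to compare words this rare. A match is a match of letters only, and the annotated start can differ from the one these cells use.

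Among the 46 large-subunit genes, 6 fell (13%) and none rose, among them Rpl12, Rpl13a, Rpl41, Rpl3 and Rpl21. Of all tested genes 15.5% were called lower, and of abundant genes 31.4%. Rpl12, a protein at the base of the ribosomal stalk (chr2:32961559-32965345), measured 236, 229, 237 and 233 CPM in control replicates 1 to 4 and 211, 205, 205 and 207 CPM in Klf4 replicates 1 to 4. All 4 Klf4 libraries lay below all 4 control libraries. It fell by 11.4% (log2 fold change -0.17 ± 0.026, SE; adjusted p = 1.18e-05, edgeR), with -0.16 in batch 1 and -0.19 in batch 2.

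Rpl13a, a protein also known for repressing translation of inflammatory mRNAs when released from the ribosome (chr7:45125558-45128761), measured 31.4, 29.9, 31.5 and 30.0 CPM in controls and 28.2, 25.5, 27.1 and 28.6 CPM under Klf4. Rpl41, the shortest protein of the ribosome (chr10:128548114-128549305), measured 544, 526, 559 and 539 CPM in controls and 516, 499, 509.8 and 496 CPM under Klf4. In both genes the groups did not overlap. Rpl13a fell by 10.8% (log2 fold change -0.16 ± 0.047, SE; adjusted p = 0.00751) and Rpl41 by 6.85% (-0.10 ± 0.026, SE; adjusted p = 0.00349), both by edgeR's quasi-likelihood test.

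Rpl3, which lies near the peptidyl transferase centre, measured 412, 396, 426 and 423 CPM in controls and 392, 372, 396 and 397 CPM under Klf4. The lower control libraries met the upper Klf4 libraries, but within each batch both Klf4 libraries were the lower ones. Rpl3 fell by 6.09% (adjusted p = 0.00856, edgeR). Its call held in 18 of 20 alternatives, and was lost without the batch term (adjusted p = 0.109) and with factors from abundant genes (adjusted p = 0.101). Rpl21 fell by 5.64% (adjusted p = 0.0201, edgeR) and also differed between batches by more than that. Its call held in 17 of 20 alternatives and was lost without control replicate 3 (adjusted p = 0.0536). It was also lost without the batch term (adjusted p = 0.365) and with factors from abundant genes (adjusted p = 0.171). The highest canonical value belonged to Rpl15, at 237, 236, 232 and 229 CPM in controls and 246, 236, 239 and 237 CPM under Klf4. Those groups overlapped, and the log2 fold change of 0.036 ± 0.026 (SE) was not called (adjusted p = 0.303, edgeR).

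Of the 31 small-subunit genes, 6 fell (19.4%) and none rose: Rps10, Rps26, Rps12, Rps6, Rpsa and Rps4x. That share lay between the 15.5% of all tested genes and the 31.4% of abundant genes called lower, and the subunits were not compared by a test. Rps6, the substrate of the S6 kinases downstream of mTORC1 (chr4:86854660-86857412), measured 418, 399, 404 and 412 CPM in controls and 391, 389.8, 374 and 378 CPM under Klf4. Every Klf4 library was below every control library. Rps6 fell by 6.17% (log2 fold change -0.092 ± 0.026, SE; adjusted p = 0.00739, edgeR). This call held in 18 of 20 alternatives, and was lost without the batch term (adjusted p = 0.0706) and with factors from abundant genes (adjusted p = 0.0904).

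Rps26, which contacts mRNA at the exit channel (chr10:128624534-128626747), measured 414 and 391 CPM in batch 1 controls and 369 and 385 CPM in batch 1 Klf4 libraries. In batch 2 it measured 498 and 478 CPM in controls and 430.5 and 450.0 CPM under Klf4. Both batches placed the Klf4 libraries below the controls, yet the batch 2 Klf4 libraries were above the batch 1 controls. Rps26 fell by 8.08% under Klf4 (log2 fold change -0.12 ± 0.028, SE; adjusted p = 0.00167, edgeR) and was 18.9% higher in batch 2.

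Rps12 showed the same layering, at 320 and 314 CPM in controls and 296 and 302 CPM under Klf4 in batch 1, and at 373 and 363 against 329 and 332 CPM in batch 2. It fell by 7.97% (adjusted p = 0.000849, edgeR). The calls for Rps26 and Rps12 each held in 19 of 20 alternatives, and were lost without the batch term (adjusted p = 0.334 and 0.197, edgeR). Rpsa, which is also the laminin receptor precursor, measured 584, 552, 619 and 609.9 CPM in controls and 558, 550.2, 545 and 573 CPM under Klf4, with overlap in batch 1 only. It fell by 5.82% (adjusted p = 0.0199, edgeR). Rps4x fell by 4.93% (adjusted p = 0.0446, edgeR), and was called lower in 10 of 20 alternatives, with the call lost on leaving out any 1 of 5 libraries (control replicates 1 and 3, Klf4 replicates 2, 3 and 4). The call for Rpsa held in 17 of 20 and was lost without Klf4 replicate 3 (adjusted p = 0.0571).

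Rps10, a protein of the small-subunit beak (chr17:27630418-27636669), had the largest called change but few reads. It measured 3.72, 3.70, 4.12 and 3.73 CPM in controls and 3.12, 3.16, 3.19 and 2.88 CPM under Klf4, so the groups did not overlap. Rps10 fell by 19.1% (log2 fold change -0.31 ± 0.11, SE; adjusted p = 0.0312, edgeR), a call that 14 of 20 alternatives kept. It was lost without control replicate 3, Klf4 replicate 1 or Klf4 replicate 4, where the log2 fold change was still between -0.32 and -0.27 (adjusted p between 0.0519 and 0.0884, edgeR). Rpl24 had a similar estimate of -0.32 but only 41 to 65 counts per library, and was not called (SE 0.20; adjusted p = 0.226, edgeR).

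**Figure D2:**
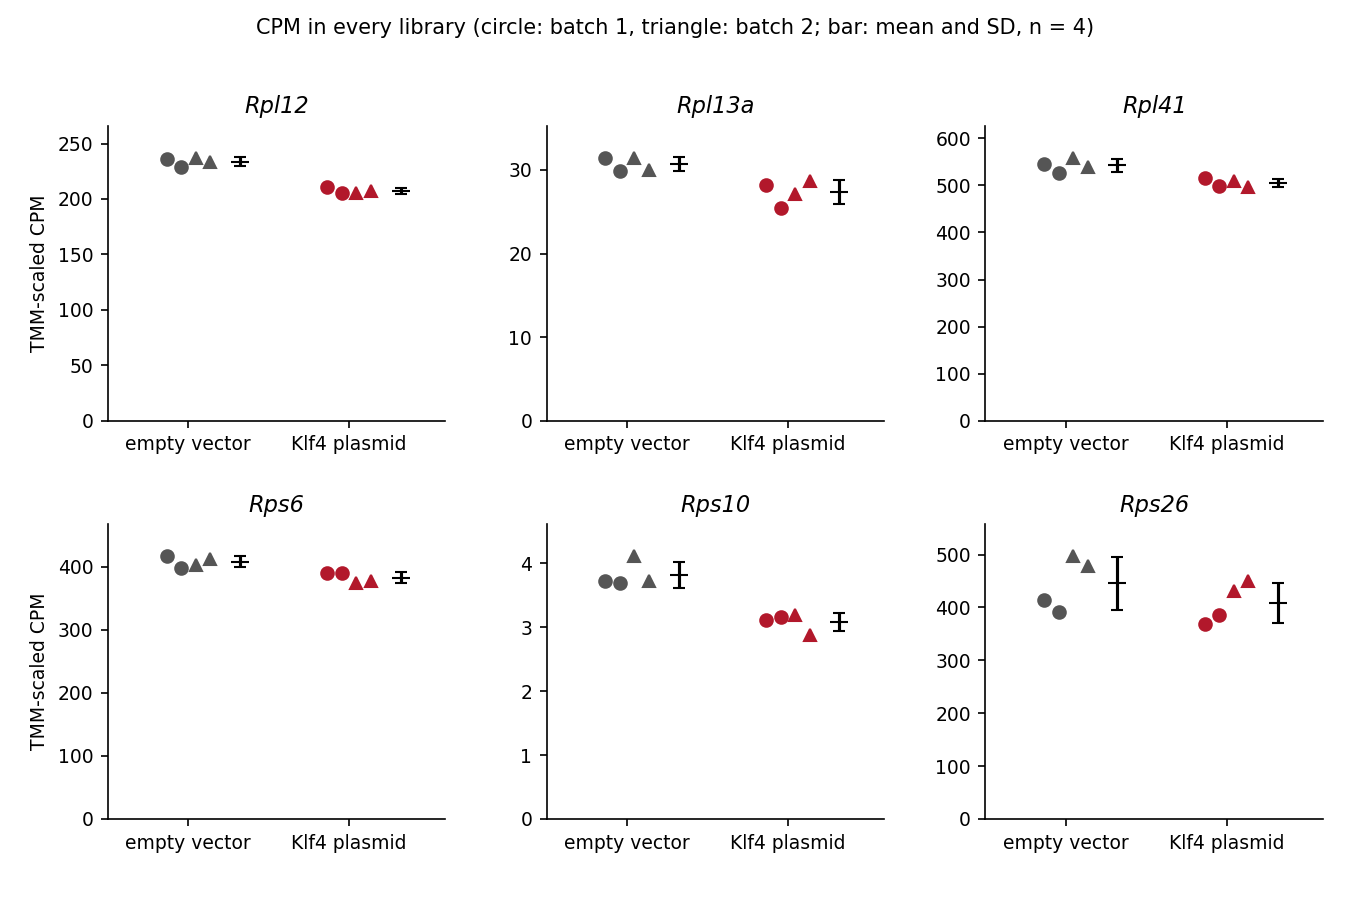
TMM-scaled CPM (y axis, from 0) of 6 genes called lower, in the 4 empty-vector and 4 Klf4 libraries (x axis), with batch 1 as circles, batch 2 as triangles and mean with SD beside them. Rpl12, Rpl13a, Rpl41, Rps6 and Rps10 show no overlap between groups, and Rps26 is ordered by batch first and by plasmid within each batch.

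Separation of the groups was counted beside that in all tested genes. All 4 Klf4 libraries lay below all 4 controls for 5 of the 85 tested genes of the family, where 8.93% of all tested genes did so. They lay above the controls for none, where 17.2% did. Within each batch both Klf4 libraries were below both controls for 19 of the 85 and above them for none, against 17.3% and 22.1% of all tested genes.

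The 3 stalk proteins, Rplp0, Rplp1 and Rplp2, form the flexible arm that recruits elongation factors. Rplp0 measured 948, 908, 1050 and 1033 CPM in controls and 931, 922, 979.8 and 1022 CPM under Klf4. Rplp1 ran from 358 to 379 CPM in controls and from 339 to 373 CPM under Klf4, and Rplp2 from 379.9 to 432 and from 370.2 to 407 CPM. The groups overlapped in each, and none was called: log2 fold changes were -0.030, -0.059 and -0.050, with 95% intervals from -0.081 to 0.022, -0.12 to 0.004 and -0.11 to 0.011. With the offset for transcript length and GC content, however, all 3 were called lower, at -0.12 for Rplp0, outside the interval above, -0.10 for Rplp1 and -0.087 for Rplp2 (adjusted p = 9.93e-05, 0.00311 and 0.0129, edgeR).

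None of the 4 tested paralogues was called under Klf4. Rpl7l1 measured 66.6 ± 2.16 CPM in controls and 65.8 ± 3.07 CPM under Klf4 (SD, n = 4), beside 423 ± 11.2 and 421 ± 8.97 CPM for Rpl7. Rpl22l1, which takes the place of Rpl22 in some cells and regulates RNA processing, measured 30.7 ± 1.01 and 29.6 ± 1.35 CPM, beside 127 ± 10.6 and 123 ± 6.99 CPM for Rpl22. Rps27l, a p53 target gene, measured 32.6 ± 2.20 and 31.9 ± 2.10 CPM, beside 154 ± 3.21 and 148 ± 10.8 CPM for Rps27. Rpl36al measured 4.32 ± 0.176 and 3.98 ± 0.424 CPM, beside 103 ± 5.95 and 102 ± 4.06 CPM for Rpl36a. These CPM are not divided by length, so they compare each gene with itself between groups.

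On the same scale divided by mRNA length, controls held 65.3 CPM per kb of Rps27l and 447 of Rps27, 55.6 of Rpl22l1 and 268 of Rpl22, and 50.8 of Rpl7l1 and 364 of Rpl7. The remaining 4 paralogues did not reach the test. Rpl10l, a testis paralogue of the X-linked Rpl10, had no counts in any library, and Rpl39l, another testis form, had a single library above 0. Rpl3l, the striated-muscle form of Rpl3, ran from 0.101 to 0.255 CPM in controls and from 0.152 to 0.322 CPM under Klf4. Rps4l ran from 0 to 0.185 CPM in controls and was above 0 in 1 Klf4 library, at 0.136 CPM. Their partners Rpl10 and Rpl39 were not called under Klf4, with log2 fold changes of 0.015 ± 0.028 and -0.028 ± 0.034 (SE).

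Among the 4 tested retrocopies, none was called and the log2 fold changes ran from -0.14 to 0.11, with a median standard error of 0.14. These copies carry 35.4% to 90.2% of 50-base stretches that also occur in another gene, so the reads behind them may include reads of the parent genes.

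More genes of the family were called between the labelled batches than between the plasmids, except without control replicate 2, where 32 were lower under Klf4 and 26 higher in batch 2. Between batch 2 and batch 1, 35 of the 85 tested genes were higher and none lower (41.2% higher, where 13.4% of all tested genes were higher and 23.7% of abundant genes). The median log2 difference, batch 2 over batch 1, was 0.062, beside 0.007 for all tested genes. The rise was not particular to this family. Of 36 nucleolar assembly genes, described below, 19 were higher in batch 2 and 1 lower (median 0.101). Of 23 genes of RNA polymerase I and III, 9 were higher and 1 lower (median 0.073). Of 77 mitochondrial ribosomal protein genes, 24 were higher and 3 lower (median 0.07). By subunit, 19 of 31 small-subunit and 16 of 46 large-subunit genes were higher, a difference that was not tested, and no paralogue or retrocopy was called. What the batches stand for, cultures or library preparation, is not given in the labels.

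The 3 largest batch differences were in Rps26, Rps29 and Rpl30. Rps29, a zinc-binding protein of the small-subunit head, measured 246 and 230 CPM in batch 1 controls and 296 and 278 CPM in batch 2 controls, and 246 and 235 against 265 and 273 CPM in the Klf4 libraries. Rpl30 measured 256 and 240 CPM against 302 and 297 CPM in controls, and 254 and 250 against 281 and 278 CPM under Klf4. In both genes all 4 libraries of batch 2 were above all 4 of batch 1. The batch 2 values were 16.0% and 15.6% higher (adjusted p = 3.22e-05 and 1.81e-05, edgeR), and neither gene was called under Klf4. Both terms were called in 4 genes, Rps12, Rps26 and Rpl21 among them, each higher in batch 2 and lower under Klf4.

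The count of 35 fell to 22 without control replicate 3 and was 34 with factors from abundant genes. β-cell markers moved the other way between batches, where 11.6% of all tested genes were lower in batch 2. Of 10 markers, 7 were lower in batch 2 and none higher, with a median log2 difference of -0.20 and Ins2 lower by 27.2%. The part of this difference in the ribosomal protein result was not tested.

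**Figure D3:**
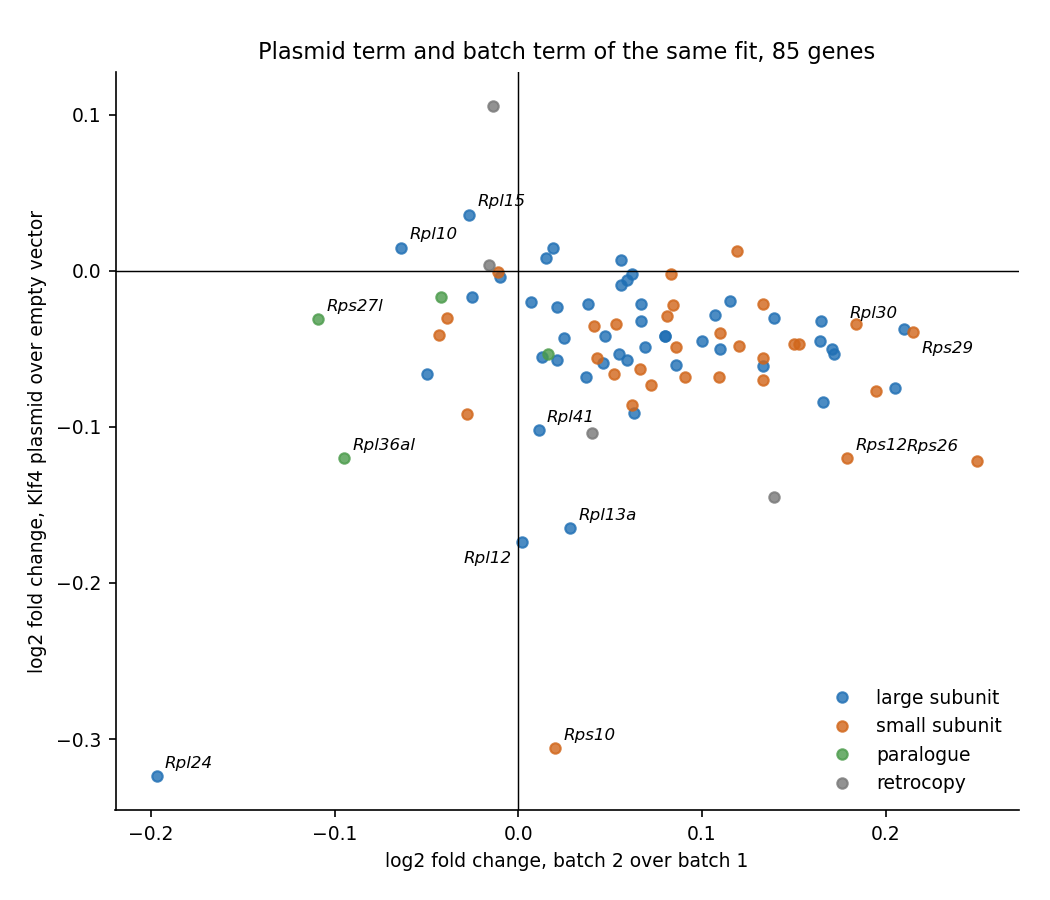
Log2 fold change under the Klf4 plasmid (y axis) against log2 difference of batch 2 over batch 1 (x axis), both from the same edgeR fit, for the 85 tested genes coloured by class. Most points lie to the right of 0 and slightly below it. Rps26, Rps29 and Rpl30 lie farthest to the right, and Rpl12, Rpl13a and Rps10 fall without a called batch difference.

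As a share of the library, the 90 genes took 2.44, 2.36, 2.58 and 2.56% of counts in control replicates 1 to 4 and 2.38, 2.30, 2.44 and 2.48% in Klf4 replicates 1 to 4. The Klf4 share was lower than the control share on average in each batch, 2.34 against 2.40% in batch 1 and 2.46 against 2.57% in batch 2. The groups overlapped in batch 1, and in batch 2 both Klf4 libraries lay below both controls. Differences, Klf4 minus control, were -0.0535 percentage points in batch 1 and -0.111 in batch 2, with p = 0.111 in an exact two-sided permutation test of the plasmid within batches, which cannot go below 0.0556. Means over both batches were 2.48 ± 0.103% and 2.40 ± 0.0733% (SD, n = 4), where the SD includes the difference between batches. Klf4 itself took 0.452 to 0.585% of the counts in its libraries, and with Klf4 left out of the total the Klf4 group's mean was 2.41 ± 0.0749%.

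**Figure D4:**
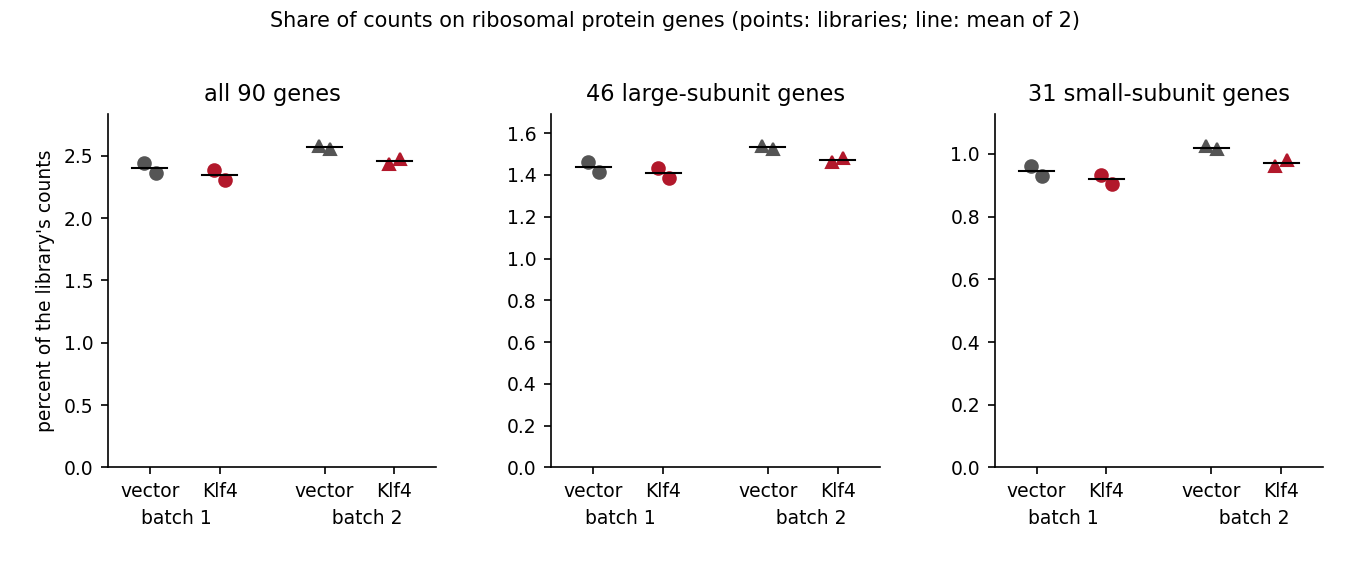
Percent of each library's counts (y axis, from 0) on all 90 ribosomal protein genes, on the 46 large-subunit and on the 31 small-subunit genes, by batch and plasmid (x axis), with 1 point per library and the mean of 2 as a line. Batch 2 controls are the highest, at 2.56 and 2.58% for all 90 genes.

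Levels per length differed widely within the family. In control cells, the canonical genes ran from 1.68 to 1241 CPM per kb of mRNA with a median of 390.0. Rpl41 was highest at 1241 (range over the 4 controls 1205 to 1279), above Rplp2 at 969 (902 to 1026), and these ranges did not overlap. Rps28 at 745 (664 to 815) and Rplp1 at 737 (718 to 760.0) followed and overlapped each other. These levels rest on 1 annotated mRNA per gene, and Rps20, at 45.1 CPM per kb, is annotated with an mRNA of 3706 bases that lowers its value.

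The 3 lowest canonical genes were Rpl24 at 1.68, Rps10 at 7.66 and Rpl13a at 29.3 CPM per kb. In the annotation, 71.5%, 91.6% and 59.3% of their mRNA bases lie in exons of another gene on the same strand: Gm28037, RPS10-NUDT3 and Gm45713, each with 0 counts in all 8 libraries. These were also the only canonical genes with more than 50% of such overlap. Rpl36al, the paralogue with 63.1% of its bases in same-strand exons of Gm49383, stood at 8.22 CPM per kb. By contrast, Rpl23a, Rpl35 and Rpl5, whose overlaps of 55.4%, 68.3% and 46.6% are with genes on the opposite strand, stood at 688, 210.5 and 189 CPM per kb. How the counting treated reads in 2 genes is not given in the sources used here, and its part in the low levels was not tested. Rps10 and Rpl13a are among the 12 genes called lower, so their fold changes rest on the reads that could be assigned.

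Sequence sharing was common in the whole family. A median of 58.7% of a gene's 50-base stretches also occur in another annotated gene, and for 57 of the 90 genes the share was over 50%. Rps27 was at 98.6% and Rpl35 at 95.1%. Of the genes above 50%, 9 of 56 tested fell under Klf4 (16.1%), and of the others 3 of 29 (10.3%), Rpl12 and Rps26 among them. Of all tested genes 15.5% were called lower, and the difference between the 2 shares was not tested. Counts of the shared genes are uncertain to the extent that reads of a pseudogene and its parent were exchanged. The 300 ribosomal pseudogenes with -ps in the name together held 283 to 321 CPM in controls and 269 to 301 CPM under Klf4. Of 98 tested 2 rose and 7 fell, where 21.1% of all tested genes were called higher and 15.5% lower.

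Outside the symbol pattern, Fau fell and Rack1 was not called. Fau, whose product is cleaved into a ubiquitin-like protein and the small-subunit protein eS30, measured 222 to 250.0 CPM in controls and 211 to 236 CPM under Klf4. It fell by 5.11% (adjusted p = 0.0424, edgeR), a call that 13 of 20 alternatives kept. The call was lost without control replicate 1 or 4 or Klf4 replicate 2 or 4 (adjusted p between 0.0594 and 0.112), without the batch term, with a filter at 1 CPM and with factors from abundant genes. Rack1, a scaffold protein on the small-subunit head, had a log2 fold change of -0.019 ± 0.026 (SE).

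Genes of ribosome production that encode no ribosomal protein were read from the same fit. Of 36 nucleolar assembly genes, 21 fell (58.3%) and none rose, where 15.5% of all tested genes and 31.4% of abundant genes were called lower. Their median log2 fold change was -0.11, beside -0.045 for the ribosomal proteins and -0.014 for all tested genes. Utp20, part of the small-subunit processome, fell from 83.0 ± 3.38 to 68.0 ± 3.70 CPM (SD, n = 4; adjusted p = 4.25e-07, edgeR), and Gar1, of the H/ACA particles that make pseudouridine in rRNA, from 34.3 ± 2.72 to 28.8 ± 1.94 CPM (adjusted p = 6.36e-05). Npm1 stands in this list and in that of TOP translation factors. With factors from abundant genes, 14 of the 36 were lower and 1 higher. Of 23 genes of RNA polymerase I and III, which transcribe rRNA and tRNA, 11 fell (47.8%) and 1 rose, with a median of -0.092. With factors from abundant genes, 7 of the 23 fell and 1 rose. The 1 that rose was Ubtf, the activator of rRNA gene transcription, from 248 ± 13.5 to 400.2 ± 44.8 CPM (adjusted p = 3.17e-14), and Taf1a fell from 16.98 ± 1.90 to 13.8 ± 1.09 CPM (adjusted p = 0.00104, edgeR).

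Translation factors and related proteins whose mRNAs carry a TOP tract form a group under the same translational control. Of 22 such genes, 6 fell (27.3%) and none rose, with a median of -0.025. That share lay between the 15.5% of all tested genes and the 31.4% of abundant genes called lower. With factors from abundant genes 2 were lower and 3 higher (median 0.010), and with the offset for length and GC content 7 were lower and 3 higher, so the direction of this group depended on the scaling. Eif3a fell from 840 ± 4.75 to 765 ± 16.7 CPM (adjusted p = 0.000108) and Eif4b from 216 ± 17.2 to 199 ± 12.1 CPM (SD, n = 4; adjusted p = 0.00188, edgeR). Between batches, 13 of the 22 were higher in batch 2 and 1 lower, where 13.4% of all tested genes were higher and 11.6% lower. Of abundant genes, 23.7% were higher in batch 2. Of 77 tested mitochondrial ribosomal protein genes, 14 fell (18.2%, near the 15.5% of all tested genes) and none rose, with a median of -0.049. With factors from abundant genes 6 were lower and 2 higher, and with the offset 25 were lower and 1 higher. Mrps35 and Mrps31 had the largest changes there, -0.21 ± 0.047 and -0.19 ± 0.050 (log2 fold change, SE; adjusted p = 0.00132 and 0.00474, edgeR).

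The lists of regulators are read beside the 21.1% of all tested genes called higher and the 15.5% called lower. In the Myc network, whose members drive or oppose ribosome production, 7 of 11 rose and 2 fell. Mycl rose from 2.34 ± 0.591 to 9.20 ± 2.77 CPM and Mxd1, a repressor partner of Max, from 11.6 ± 0.972 to 22.2 ± 0.592 CPM (SD, n = 4; adjusted p = 5.95e-14 and 1.02e-11, edgeR). Among 24 genes of the mTORC1 and S6 kinase pathway, 5 rose (20.8%) and 6 fell (25%), shares not far from those of all tested genes, with a median of -0.028 that became 0.007 with factors from abundant genes. Castor1, an arginine sensor, rose from 0.275 ± 0.0670 to 0.919 ± 0.163 CPM and Eif4ebp1, which holds back the cap-binding protein Eif4e, from 2.53 ± 0.582 to 3.89 ± 0.260 CPM (adjusted p = 2.97e-05 and 0.00105, edgeR). Of 14 tested genes of ribosomal stress and quality control, 4 rose and 4 fell. Cdkn1a, a cell cycle inhibitor induced by p53, rose from 156 ± 7.61 to 223 ± 23.5 CPM, and Eif2ak4, the kinase that senses uncharged tRNA, from 25.1 ± 0.653 to 33.8 ± 2.82 CPM (adjusted p = 6.44e-11 and 2.34e-07, edgeR).

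**Figure D5:**
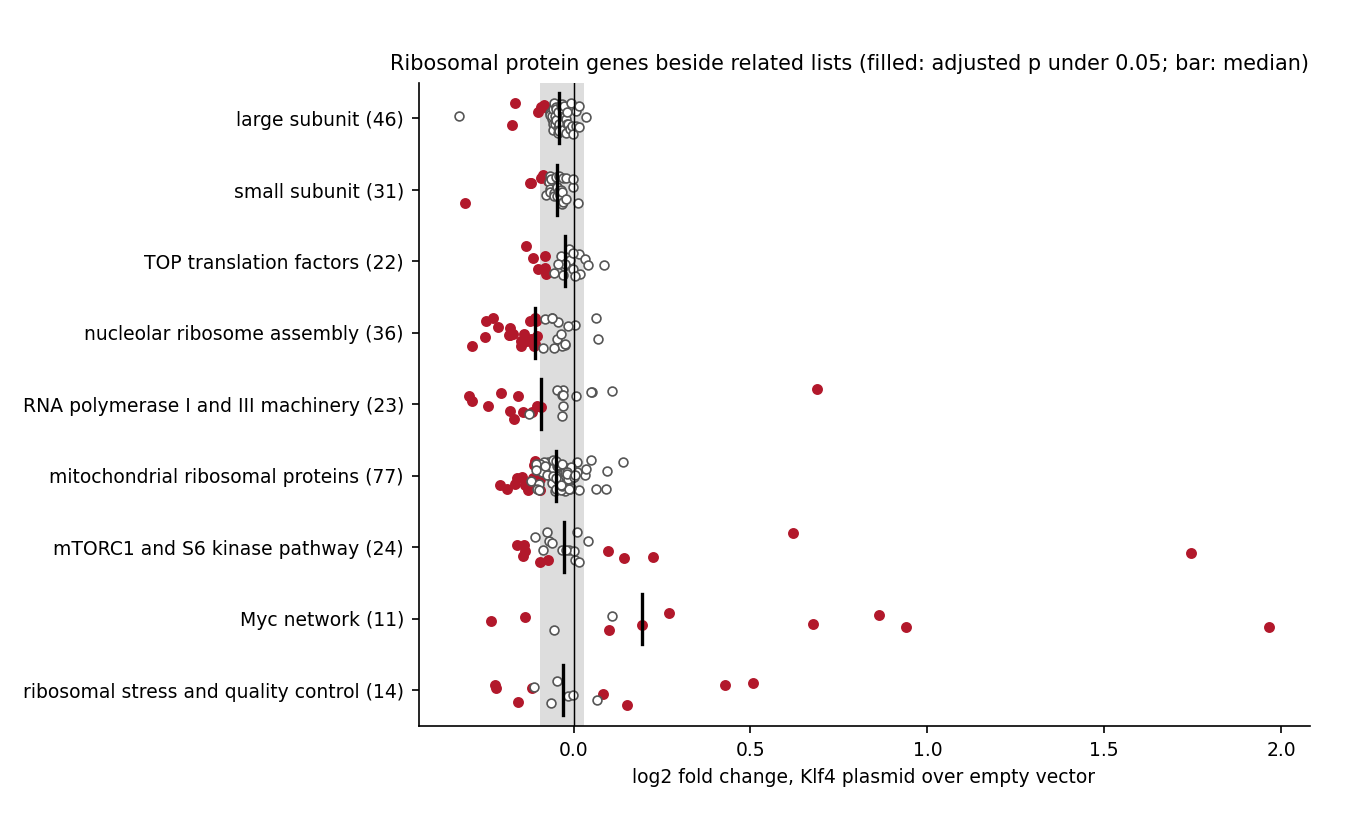
Log2 fold change under the Klf4 plasmid (x axis) of every tested gene of the large and small subunit and of 7 related lists (y axis, number tested in brackets). Filled points have an adjusted p under 0.05, bars are medians and the grey band spans the quartiles of the abundant genes, from -0.095 to 0.029. The ribosomal protein genes lie mostly within the band, whereas 21 of 36 nucleolar assembly genes lie lower and are called.

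Markers of cell types were summed beside these results. Their calls are read beside the 21.1% of all tested genes called higher and the 15.5% called lower. The 10 β-cell markers summed to 31580 to 39570 CPM in controls and 29520 to 39870 CPM under Klf4, with 5 lower and none higher. The 8 mesenchymal markers summed to between 2.65 and 3.92 CPM in controls and between 21.1 and 27.5 CPM under Klf4, with 3 of 4 tested called higher and 1 at 0 in all libraries. Log2 fold changes of those 4 ran from 0.093 to 8.49, so the markers did not rise evenly, and the sum started from a low level. The 7 ductal markers summed to 57.1 to 88.7 and 74.2 to 113 CPM (4 of 5 tested higher), the 8 α-, δ- and PP-cell markers to 589 to 711 and 603 to 705 CPM (2 of 4 tested higher). Acinar markers held at most 4.24 CPM with 3 of 9 at 0, and immune markers at most 8.04 CPM. Their part in the small decreases of ribosomal protein genes was not tested.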

How the data were processed

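Polyadenylated RNA of 8 MIN6 libraries was sequenced with a Tecan Universal Plus kit, per the labels. The authors deposited a table of whole-number read counts with a row for each gene and a column for each library, neither normalised nor pooled. The submitters' processing notes name FastQC, STAR, featureCounts, edgeR and the mm10 build, and the name given to the deposited counts says that reads were trimmed with cutadapt. The annotation, the strand setting and the treatment of reads that match several genes are not given in the sources used here. All 55536 pairs of identifier and symbol were found in GENCODE M21 (GRCm38), which supplied coordinates, mRNA lengths and the 50-base stretches shared between genes.

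Genes were kept by filterByExpr (minimum count 10) and fitted in edgeR 4.0.16 (R 4.3.3, limma 3.58.1) with TMM factors (0.996 to 1.01) and terms for batch and plasmid, as the series' design text asks. P-values of the quasi-likelihood test were adjusted (Benjamini-Hochberg) across the 18266 genes tested. The fit was tested on simulated counts that held no batch difference and few changed genes. That test did not cover the batch term or the choice of scaling in these data. Replicate numbers come from the sample titles only. Same-numbered libraries deviated together (r = 0.61, 0.46, 0.57 and 0.52 over 10485 genes), but not once batch means were removed (-0.05, -0.05, 0.08 and 0.08). Batch was the term of the design, and the replicate block an alternative. No pair of libraries agreed within sampling noise (chi-square per degree of freedom 4.25 to 5.77 within a batch of a group, 17.6 to 22.6 between batches). Where the labels do not say that replicates were separate cultures, p-values measure the spread between these libraries.

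The members and all lists were chosen with earlier results of these data known. Named with values were Klf4, the 5 called members of lowest log2 fold change, the stalk genes and Rpsa, the paralogue pairs, Fau, the 3 largest batch terms and the 2 largest changes of each other list. Rpl41, Rps6, Rpl15, Rpl24, Rpl21 and the genes named for their level, overlap or sequence sharing were added after their values were seen. The permutation test of the share of counts was also chosen after its values were seen. A few genes are not reported here. Promoters are RefSeq's (GRCm38.p6), matched by symbol for 65 of the 90 members. Alternatives were DESeq2 1.42.0 (Wald test, size factors), limma-voom, other filters, scalings, offsets and thresholds, and each library left out. Figures were drawn with matplotlib 3.10.9.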

Additional observations from a re-analysis of the deposited data

Results flagged for a closer look

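In 66 checks of 1 gene or library measure within a group of 4, a single library stood far from the other 3 in 6 cases, where chance gives about 1 in 20, or 3.3. Rps10 measured 4.12 CPM in control replicate 3 and 3.70 to 3.73 CPM in the other controls. Its call under Klf4 was lost without that library, with a log2 fold change of -0.28 instead of -0.31, and also without Klf4 replicate 1 or 4. Rpl10 measured 365 CPM in Klf4 replicate 1 and 336 to 340.5 CPM in the other Klf4 libraries. The other 3 genes were near the limit of detection: Rpl3l at 0.322 CPM in Klf4 replicate 4 against 0.152 to 0.174 CPM, Rps4l at 0.136 CPM and Rpl39l at 0.0194 CPM in Klf4 replicate 1, with 0 in the other Klf4 libraries. The total of Klf4 replicate 2 was 45417853 counts, against 51891997 to 52731176 in the rest of its group.

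Klf4 itself responded differently in the batches: its log2 fold change was 6.79 in batch 1 and 7.16 in batch 2, a difference of 0.37 (interaction term, adjusted p = 0.0057, edgeR's quasi-likelihood test).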

How the results depend on the processing

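The count of members called lower, 12, became 3 without the batch term, 23 without a filter on low counts, 5 with TMM factors from genes of average log2 CPM at least 6 (where 1 member was called higher), 21 with the 10 most abundant genes removed, 37 with an offset for length and GC, 38 with that offset and the replicate block, and 7 at an adjusted p under 0.01. Leaving out 1 library gave 9 to 32 lower, the highest without control replicate 2 (32) and Klf4 replicate 1 (24). Of all genes tested, 6.35% were lower without the batch term, 9.15% without the filter and 8.97% with factors from abundant genes. The share was 18% with the 10 genes removed, 19.7% with the offset, 18.2% with offset and block, and 9.29% at an adjusted p under 0.01. With 1 library left out, between 13.2% and 17.7% of all genes tested were lower. The replicate block alone left the same 12 and changed no call of a member. All genes called fell from 6684 to 4116 without the batch term. For the batches, 35 members higher became 22 to 40 and 0 lower became 0 to 1 with 1 library left out. Of the 85 members, 34 had an estimate that crossed 0 under at least 1 alternative. Of these, 2 were called where they had crossed, both lower with the offset, Rpl35 among them (-0.086, adjusted p = 0.00769, edgeR, against 0.007). Of the genes named with values, the following crossed 0, none of them called there. Rpl7 was 0.001 with a filter at 1 CPM. With factors from abundant genes, Rpl7 was 0.026, Rplp0 0.006, Rpl7l1 0.018, Rpl36a 0.016, Rpl39 0.007 and Rps27l 0.004. With the offset, alone and with the replicate block, Rpl7 was 0.022 and 0.022, Rpl22l1 0.006 and 0.005, Rps27l 0.025 and 0.026, and Rpl30 0.006 and 0.006. With 1 library left out, Rpl10 ran from -0.013 to 0.035 and Rpl7l1 from -0.054 to 0.003. The causes were not tested, apart from the fewer samples in those fits. Rpl24, with 41 to 65 counts per library, had a standard error of 0.20, so a change of the size of most members was not detectable there.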
